A study of Mus musculus with 4 samples.

Results

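The cells described here are those that the authors deposited under the class name SMC (smooth muscle cells), 1530 of the 45936 cells in the series. They were chosen by that label alone. It covers cluster 13 of the deposited clustering and no cell outside it. Control libraries 1 and 2 held 724 and 753 of the cells, and knockdown libraries 1 and 2 held 48 and 5. The class was therefore described mainly in the controls. It was set there against the 10 other mesenchymal classes, with 11317 and 10727 cells in control libraries 1 and 2.

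The samples were alveolospheres, organoids in which mouse alveolar type 2 (AT2) epithelial cells were grown with PDGFRα-positive lung fibroblasts. The genotype of the 2 control libraries is given as wildtype, and that of the 2 knockdown libraries as wildtype AT2 cells with a PDGFRα-specific knockdown (KD) of the transcriptional co-activators YAP and TAZ. Both groups received 3 µg/ml doxycycline from day 7 of culture and were collected on day 14, and the labels put all 4 libraries in 1 batch. The labels call the libraries biological replicates without naming separate animals or cultures, so each p-value measures only the spread between these libraries.

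Smooth muscle cells contract through a specialised set of actins, myosins and actin-binding proteins, whose genes are switched on by serum response factor (SRF) together with its co-activator myocardin. Myocardin is the most restricted of these regulators, while the related factors MRTF-A and MRTF-B also act in fibroblasts. In the lung, smooth muscle surrounds airways and vessels. Airway smooth muscle lies next to hedgehog-responsive mesenchyme, and alveolar myofibroblasts share α-smooth muscle actin with it.

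Each cell's counts were of unique molecular identifiers (UMIs), and summed counts are given as CPM, a gene's UMIs divided by all UMIs of the class in that library and put on a common scale. The class summed to 2680165 and 3214965 UMIs in control libraries 1 and 2 and to 215528 and 32469 UMIs in knockdown libraries 1 and 2. Its median depth was 3092 and 3564 UMIs per cell in the controls, against 3813 and 4071 UMIs in the other mesenchymal cells. Its median ATAC doublet enrichment in the controls, 0.368 and 0.488, lay close to the 0.358 and 0.475 of the other mesenchymal cells. A barcode that also occurs in another library was carried by 76 of the 1530 cells. The count of a class in a library is set by the same genes that define it, so the cell numbers by condition are given as a description.

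The SMC class made up 6.01% (95% exact binomial interval 5.59 to 6.45) and 6.56% (6.11 to 7.03) of mesenchymal cells in control libraries 1 and 2. In knockdown libraries 1 and 2 the share was 0.642% (0.474 to 0.851) and 0.0976% (0.0317 to 0.228). Both knockdown libraries were below both controls, and the intervals cover counting error only. Over the same libraries the class deposited as Tgfbi+ Fibroblasts went the other way, from 5 and 38 cells in the controls to 931 and 404 cells in the knockdowns.

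**Figure D1:**
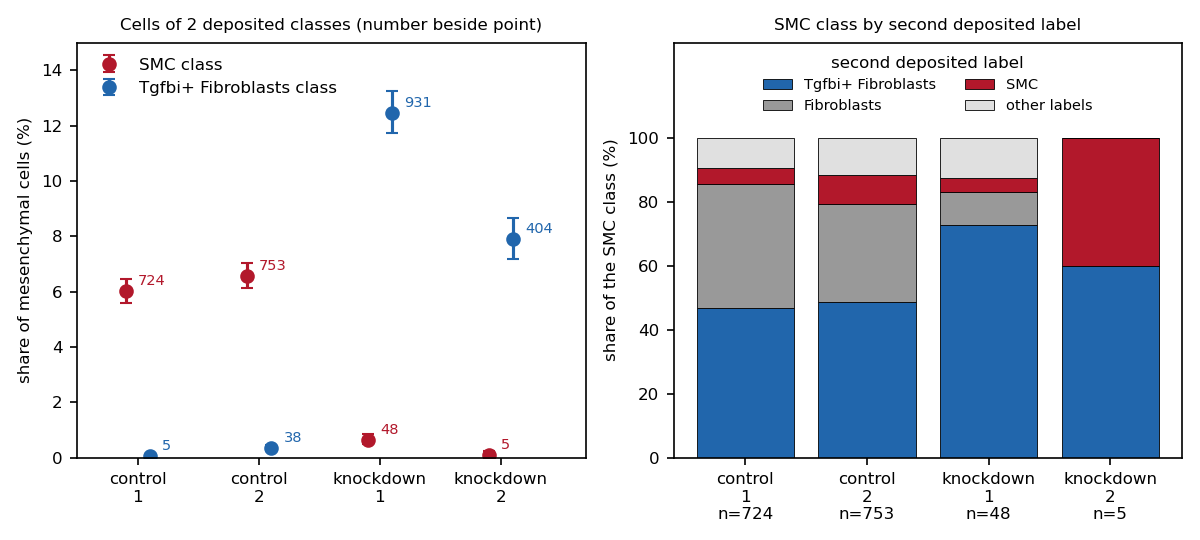
Left, share of mesenchymal cells (%) in the SMC class (red) and the Tgfbi+ Fibroblasts class (blue) in each library, with 95% exact binomial intervals and the number of cells beside each point. Right, share of the SMC class (%) by the second deposited label. SMC shares were 6.01% and 6.56% in the controls and 0.642% and 0.0976% in the knockdowns, and Tgfbi+ Fibroblasts was the most frequent second label in all 4 libraries.

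The 5 genes listed as markers of the class were at their highest here among the 9 mesenchymal classes with at least 50 cells in both controls. Myocd (ENSMUSG00000020542, GRCm38 chromosome 11, 65176561 to 65269989, minus strand) encodes myocardin. It stood at 122 and 114 CPM in control libraries 1 and 2, against 6.86 and 5.33 CPM in the other mesenchymal cells, and the next class, Myofib-like, reached 14.0 and 15.2 CPM. Myh11 (chromosome 16, 14194535 to 14291372, minus strand), the smooth muscle myosin heavy chain, stood at 97.0 and 96.4 CPM against 7.66 and 7.07 CPM. Both controls gave nearly the same level, far from any other class.

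Pdlim3 (chromosome 8, 45885461 to 45919548, plus strand), an actinin-binding PDZ-LIM protein of the contractile lattice, stood at 28.0 and 28.6 CPM against 2.20 and 1.74 CPM. Robo2 (chromosome 16, 73891839 to 74411825, minus strand), a receptor for Slit guidance cues, stood at 426 and 432 CPM against 50.4 and 47.3 CPM. Actg2 (chromosome 6, 83512905 to 83536265, minus strand), the γ-smooth muscle actin of airway and visceral muscle, stood at 66.0 and 114 CPM against 15.9 and 22.4 CPM, and was the one marker for which the controls differed by more than 1.5 times. The mean log2 ratios were 4.08 for Myocd, 3.55 for Myh11, 3.31 for Pdlim3, 3.11 for Robo2 and 2.15 for Actg2, on the scale log2(CPM + 1). These genes helped to define the cluster, so the ratios describe it and carry no test.

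The contractile list held 20 genes of the smooth muscle apparatus. Across all genes, 6549 reached 20 CPM in the class or in the other mesenchymal cells in both controls, and 1.76% of them (115) were at least 2-fold higher in the class in both controls, with another 1.76% (115) at least 2-fold lower. At the threshold, Dock5 was just inside with a smaller log2 ratio of 1.00 and Peli2 just outside with 0.99. Of the 20 contractile genes 16 reached the level, 4 were at least 2-fold higher (Actg2, Myh11, Mylk and Pdlim3) and 0 were lower. Their median log2 ratio was 0.84, beside 0.07 over all 6549 genes. Their summed level was 6170 and 7500 CPM in the class and 4128 and 4577 CPM in the other mesenchymal cells.

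The classical contractile genes were less distinct than Myocd or Myh11. Acta2, α-smooth muscle actin, stood at 548 and 1071 CPM against 281 and 402 CPM, a log2 ratio of 0.96 in control 1 and 1.41 in control 2. Tagln (transgelin) stood at 308 and 498 CPM against 190 and 254 CPM. Mylk, the myosin light chain kinase that starts contraction, stood at 394 and 422 CPM against 191 and 197 CPM. Each was higher in the class than in the other cells in both controls, yet for Acta2 and Tagln the controls differed from each other nearly as much as the classes did. Des (desmin) and Myl9, the regulatory myosin light chain, both had a mean log2 ratio of 1.08 and missed the 2-fold rule in control 1. Cnn1 (calponin 1) stood at 16.8 and 30.5 CPM, against 7.23 and 9.79 CPM, and did not reach 20 CPM in control 1. Broadly expressed cytoskeletal genes differed least, with mean log2 ratios of 0.64 for Tpm1, 0.44 for Cald1 and 0.18 for Myl6.

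**Figure D2:**
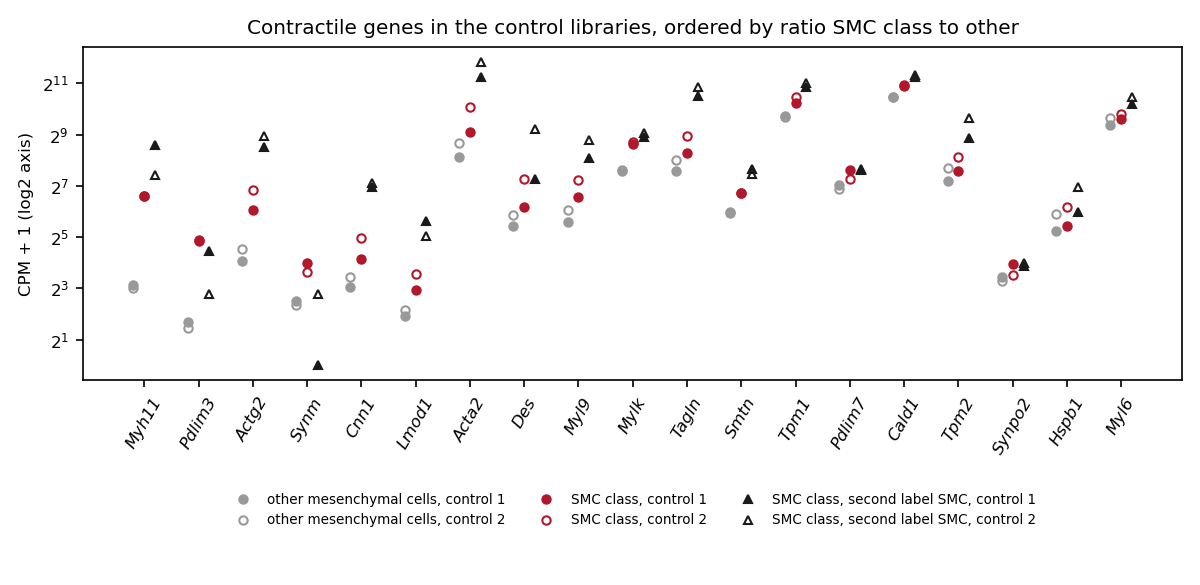
Level of genes of the contractile list (CPM + 1, log2 axis) in control libraries 1 (filled) and 2 (open), for other mesenchymal cells (grey), the SMC class (red) and the cells of the class that also carry the second label SMC (black triangles). Myh11, Pdlim3 and Actg2 separate the class most, Acta2 by a mean log2 ratio of 1.19, and Myl6 by 0.18.

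The proximal promoters of contractile genes are known for CArG boxes, the 10-base element bound by SRF, and for MCAT elements, bound by the TEAD factors through which YAP and TAZ act. The table of RefSeq promoters (GRCm38.p6, 250 bases before to 50 after each start) held 18 promoters for 16 of the 20 genes. It held none for Tagln, Myh11 or Actg2, so the counts below do not cover these genes. An MCAT element (CATTCC, either strand) was in 8 of the 18 promoters (44.4%), against 14.7% of all 32851 promoters. CArG boxes were counted throughout only in the strict form, CC, then A or T only, then GG. That form was in 2 of 18 (11.1%), those of Myl9 and Myl6, against 1.63% of all. The Acta2 promoter holds ccctatatgg and ccttgtttgg, which have a C or a G among the middle bases and so were not counted. An E-box (CACGTG) was in 1 of 18 (5.56%), against 7.15%. Of the 25 genes that led the class 17 had a promoter in the table. The shares of their 22 promoters were 27.3% with MCAT, 9.09% with an E-box and 0 with a CArG box. Of the 115 genes at least 2-fold higher in the class 80 had a promoter there. MCAT was in 15.2% of their 112 promoters, close to the share of all promoters, a CArG box in 4.46% and an E-box in 5.36%. A match is a description of the letters and not a bound site, and no match says only that the letters are not in this window. Promoters of 3 genes are shown, for the 2 kinds of element, over the 250 bases before the start, with the element in capitals: Acta2 (chr19:34255374-34255623, minus strand), which has 1 MCAT element beginning 146 bases before the start, Myl9 (chr2:156775214-156775463, plus strand), which has a CArG box beginning 161 bases before it, and the marker Pdlim3 (chr8:45885237-45885486, plus strand), which has MCAT elements beginning 201 and 11 bases before it.
Acta2: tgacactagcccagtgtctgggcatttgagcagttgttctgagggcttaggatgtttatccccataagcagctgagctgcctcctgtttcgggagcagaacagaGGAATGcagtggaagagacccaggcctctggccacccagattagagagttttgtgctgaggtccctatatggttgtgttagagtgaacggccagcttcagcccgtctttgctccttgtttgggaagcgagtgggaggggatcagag
Myl9: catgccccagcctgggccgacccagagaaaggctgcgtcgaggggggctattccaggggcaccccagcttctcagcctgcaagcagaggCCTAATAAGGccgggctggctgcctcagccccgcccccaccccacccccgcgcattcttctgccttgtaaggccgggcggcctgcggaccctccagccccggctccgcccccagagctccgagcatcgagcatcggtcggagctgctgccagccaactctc
Pdlim3: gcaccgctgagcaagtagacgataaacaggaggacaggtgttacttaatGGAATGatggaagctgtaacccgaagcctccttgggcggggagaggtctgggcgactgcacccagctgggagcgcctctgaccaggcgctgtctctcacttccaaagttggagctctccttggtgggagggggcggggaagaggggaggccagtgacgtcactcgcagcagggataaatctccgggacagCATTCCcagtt

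Among regulators of smooth muscle genes, Myocd alone was at least 2-fold higher and Ebf1 alone lower, of 10 of the 20 listed that reached the level (median log2 ratio 0.13). Srf was at 7.09 and 7.47 CPM in the class and 6.18 and 8.10 CPM elsewhere, so the 2 ranges overlapped. Mrtfa and Mrtfb, which encode MRTF-A and MRTF-B, had mean log2 ratios of 0.19 and 0.07. Ebf1, a transcription factor of mesenchymal and adipogenic cells, stood at 25.4 and 29.5 CPM against 156 and 124 CPM. Prrx1, a mesenchymal homeobox factor, was lower by a mean log2 ratio of -0.82, and Foxf1, a forkhead factor of lung mesenchyme downstream of hedgehog, was higher by 0.66, both within 2-fold.

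Calcium handling and contractile receptors gave few differences. Cacnb2, a subunit of L-type calcium channels, stood at 1028 and 849 CPM against 325 and 271 CPM, and Cacna1d, an L-type pore subunit, at 56.3 and 55.7 CPM against 160 and 138 CPM. These were the only calls of the 10 calcium and channel genes that reached the level, whose median log2 ratio was 0.25. Of the 20 receptor and relaxation genes 4 reached it. Pde5a, the phosphodiesterase that ends cyclic GMP signals, stood at 419 and 377 CPM against 140 and 124 CPM, and Ednra, the endothelin A receptor, at 688 and 625 CPM against 321 and 324 CPM. Chrm3, the muscarinic receptor that drives airway contraction, was nearly undetected, with 0.75 and 1.24 CPM in the class and 5.23 and 9.28 CPM elsewhere.

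Several hedgehog response genes were higher in the class. Of 15 genes listed for airway smooth muscle and hedgehog signalling 10 reached the level, 6 were at least 2-fold higher, among them the class marker Actg2, and 0 were lower, with a median log2 ratio of 1.27. Hhip, a hedgehog-binding inhibitor, stood at 27.2 and 34.5 CPM against 3.85 and 5.41 CPM. Ptch1, the hedgehog receptor and a target of the pathway, stood at 250 and 242 CPM against 67.1 and 62.5 CPM, and Gli1, its transcription factor and target, at 57.8 and 52.3 CPM against 18.3 and 16.4 CPM. In all 3 the controls were close and did not overlap the other cells. Wnt5a, a Wnt ligand, had a mean log2 ratio of 1.24. Pdgfra, the gene of the receptor used to isolate the fibroblasts, stood at 280 and 305 CPM against 298 and 313 CPM, a mean log2 ratio of -0.06.

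Adhesion, matrix and guidance genes were mixed. Of 16 adhesion genes 2 were higher, Itga1 (integrin α1, 169 and 153 CPM against 57.1 and 58.0) and Dmd (dystrophin, 56.3 and 62.8 CPM against 14.7 and 12.4), and 0 lower, with a median log2 ratio of 0.37. Of 18 matrix genes Lama2 (laminin α2) and Eln (elastin) were higher and Fbln1 (fibulin 1) lower, with a median of 0.03. Eln stood at 640 and 887 CPM against 198 and 212 CPM. Among 15 guidance genes Robo1, Robo2 and Sema3c were higher and Sema3d lower (median 0.42). The Robo ligands differed less and in opposite directions, with mean log2 ratios of 0.30 for Slit2 and -0.85 for Slit3. Signalling genes at least 2-fold higher included Bmp5, a BMP ligand (99.2 and 116 CPM against 35.1 and 40.1), and Dkk2, a Wnt modulator (70.1 and 76.5 CPM against 23.1 and 24.0).

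Beyond the markers, the 25 leading genes were those with the largest ratio in the less different of the 2 controls, and their mean log2 ratios ran from 1.96 to 4.08. Besides the muscle genes they included Bmp3, a BMP family ligand (41.4 and 54.1 CPM against 4.47 and 5.33), Penk, the enkephalin precursor (986 and 996 CPM against 169 and 220), Tgfbi, a matrix protein induced by TGF-β (366 and 429 CPM against 71.6 and 86.7), and Hmcn1 (hemicentin 1, 1001 and 809 CPM against 229 and 190). Of the 25 genes 24 were highest in the class in both controls. The exception was Thsd4, a microfibril-associated protein, at 329 and 291 CPM in the class and 712 and 650 CPM in Unknown Mesenchymal cells.

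The class profile was most like that of the deposited Fibroblasts class, with a Spearman correlation of log2 levels over 6549 genes of 0.946 in both controls, and next like Myofib-like cells, at 0.910 and 0.904. Against Fibroblasts alone 25 of the 25 leading genes were at least 2-fold higher in both controls (median log2 ratio 2.45). Against Myofib-like cells 22 of 25 were (median 2.10), the others being Rapgef4, Tgfbi and Tbx3os1. The 25 were picked in these same controls for their ratio to all other mesenchymal cells, both of these classes included. High counts therefore follow in part from the choice, and they are given without the share over all genes. Genes share library and depth within each pair, and the correlations are across genes, which are not independent replicates.

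**Figure D3:**
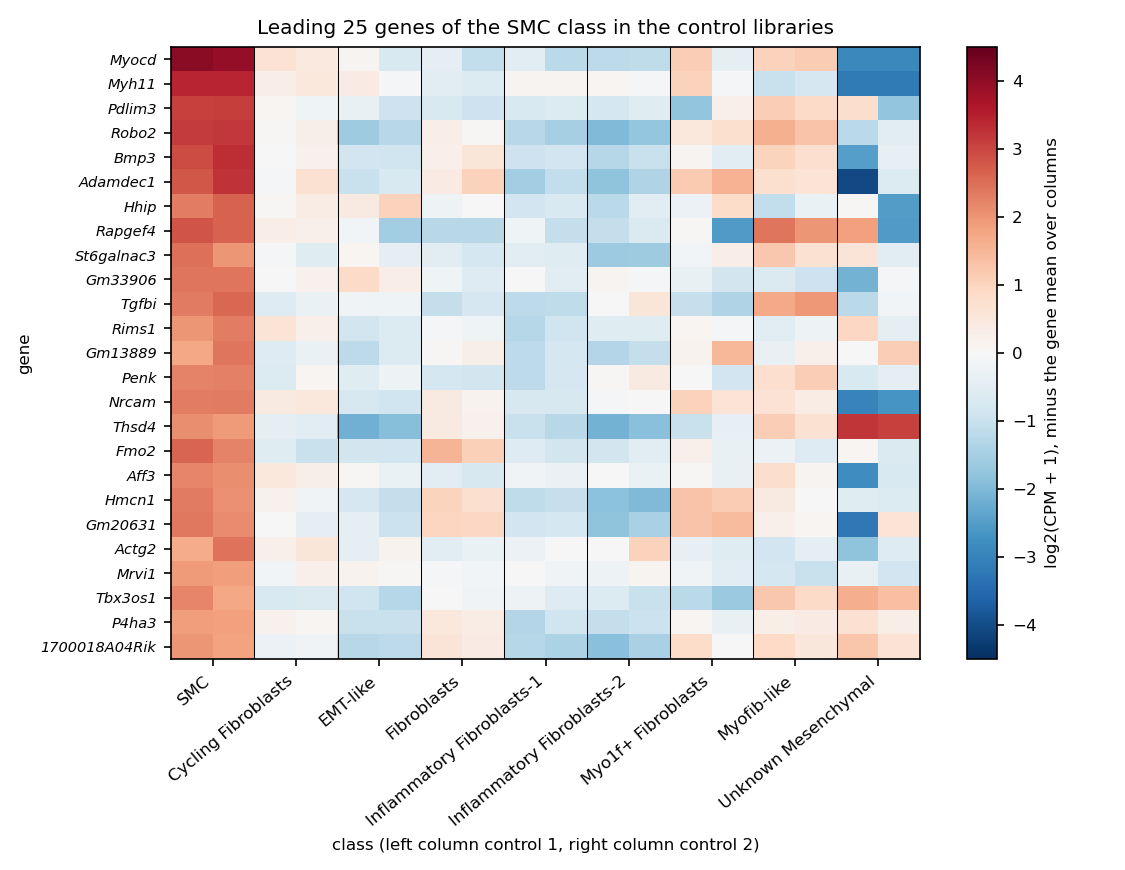
Level of the 25 leading genes in the SMC class and the 8 other mesenchymal classes with at least 50 cells in both controls, as log2(CPM + 1) minus the mean of the gene over the columns (left column control 1, right column control 2 of each class). In 24 of 25 rows the darkest red is the SMC class in both controls, Thsd4 being darker in Unknown Mesenchymal cells, and Tgfbi and Rapgef4 are also raised in Myofib-like cells.

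Genes low in the class included secreted and inflammatory factors. Brinp3 stood at 1.12 and 2.49 CPM against 30.7 and 20.2 CPM. Of 13 inflammatory genes that reached the level 9 were at least 2-fold lower and 0 higher, with a median log2 ratio of -1.45. They were Ccl2, Ccl7, Cxcl1, Cxcl5, Il6, Il1rl1, Csf1, Saa3 and C3. The cells compared include 2 classes deposited as Inflammatory Fibroblasts, one of which, Inflammatory Fibroblasts-2, had the highest sum of the list (2593 and 3087 CPM, against 601 and 790 CPM in the SMC class). Il6, a cytokine of activated fibroblasts, stood at 16.0 and 23.3 CPM against 76.1 and 90.8 CPM, and the neutrophil chemokine Cxcl1 at 34.0 and 41.7 CPM against 149 and 164 CPM. Mki67, Top2a, Cenpf, Tpx2 and Ube2c of the mitotic genes were lower too, 5 of 6 that reached the level. They also include a cycling class: without it the log2 ratio of Mki67 was 0.028, against -1.24 with it.

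Markers of vessel wall and other cell types were checked over whole lists. Of 14 vascular smooth muscle genes only Ednra reached 20 CPM. Rergl, Casq2, Kcna5 and Olfr558 had 0 UMIs in both controls, where 3 UMIs, the limit that a count of 0 allows, come to 1.12 and 0.933 CPM. The list summed to 736 and 671 CPM against 361 and 362 CPM elsewhere, most of it Ednra. Rgs5, a defining pericyte gene, stood at 1.49 and 0.62 CPM, and the 15 pericyte genes summed to 435 and 503 CPM against 438 and 464 CPM. Pan-fibroblast genes were as high as in the other classes, with 0 of 9 differing 2-fold and sums of 12077 and 14611 CPM against 11423 and 13972 CPM. The endothelial list summed to 7.09 and 11.5 CPM and the immune list to 17.2 and 15.6 CPM. Transcripts of epithelial cells were present at the level of the other mesenchymal cells, with AT2 list sums of 1010 and 1027 CPM against 885 and 941 CPM.

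Only some cells of the class carried the muscle markers at the depth available. After each cell was thinned to 2000 UMIs, which kept 648 of 724 and 697 of 753 cells, Myocd was seen in 16.7% and 16.5% of cells in the 2 controls (24.6% and 26.3% unthinned), and Myh11 in 10.6% and 11.5% (13.8% and 16.3% unthinned). Robo2 was seen in 46.6% and 46.9%. At least 1 of the 5 markers was seen in 63.3% and 64.0% of the class, in 11.7% and 10.7% of other mesenchymal cells, and in 0.887% and 1.30% of AT2 cells (deposited cluster 9, median 3614 and 3812.5 UMIs), which should lack them. Unthinned, these shares were 76.0% and 79.3%, 19.7% and 19.5%, and 2.25% and 3.25%. Acta2 was seen in 48.1% and 60.7% of the class and also in 17.3% and 15.4% of AT2 cells, so its share held more background.

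Detection of Tgfbi went with that of Myocd and Myh11 but not with that of Actg2. Among thinned cells with an Actg2 UMI, Myh11 was seen in 44.1% and 38.0% (controls 1 and 2), against 7.30% and 7.44% of cells without one. Tgfbi was seen in 50.9% and 56.5% of cells with a Myocd UMI, against 26.1% and 33.7% of cells without, and in 42.0% and 46.3% of cells with a Myh11 UMI, against 28.8% and 36.3%. With and without an Actg2 UMI, Tgfbi was seen at similar shares, 27.1% and 38.0% against 30.6% and 37.4%. Cells of 1 library are not replicates, so these shares are given without a test.

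The authors deposited a second annotation column, and it split the class. Of the 1530 cells 745 (48.7%) were named Tgfbi+ Fibroblasts there, 518 (33.9%) Fibroblasts and 106 (6.93%) SMC, and the rest carried 6 other names. Conversely, 582 mesenchymal cells had the second label SMC, of which 414 sat in the deposited Fibroblasts class. The second label Tgfbi+ Fibroblasts also covered 740 of the 1378 cells of the class deposited as Tgfbi+ Fibroblasts. The 3 subsets of the SMC class differed in kind, as measured in the controls. They were named from these cells, so the levels are a description.

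The 35 and 67 control cells with SMC under both labels had the highest summed level of the contractile list among the 3 subsets. Their contractile list summed to 12440 and 15459 CPM, against 6253 and 7201 CPM in the subset named Tgfbi+ Fibroblasts and 5267 and 6147 CPM in the subset named Fibroblasts. Acta2 stood at 2442 and 3621 CPM, Tagln at 1446 and 1874 CPM, Actg2 at 367 and 495 CPM and Cnn1 at 125 and 136 CPM. Per cell at 2000 UMIs the median contractile count was 24.5 and 27.5 UMIs, beside 11 and 12 in the whole class, 8 and 8 in other mesenchymal cells and 4 and 4 in AT2 cells. The same cells were low in Tgfbi, with 2 and 28 UMIs (13.8 and 82.5 CPM). Hhip had 0 and 2 UMIs there, too few to place it, since 3 UMIs come to 20.8 and 8.84 CPM in these cells.

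Myocd, Robo2 and Pdlim3 were instead highest in the 340 and 367 control cells whose second label was Tgfbi+ Fibroblasts. Myocd stood there at 211 and 211 CPM, against 62.3 and 85.4 CPM in the doubly labelled SMC cells and 42.4 and 19.1 CPM in the subset named Fibroblasts. Pdlim3 stood at 52.4 and 58.6 CPM, against 20.8 and 5.89 CPM and 2.02 and 1.06 CPM. Tgfbi reached 624 and 831 CPM and Penk 1346 and 1602 CPM. Acta2, at 464 and 838 CPM, was well below the doubly labelled cells. Myh11 was shared by both subsets, at 123 and 167 CPM here and 381 and 171 CPM in the doubly labelled cells, ranges that nearly met. In the subset named Fibroblasts Myh11 stood at 15.2 and 11.7 CPM.

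The data met the SMC label only in part. The class led in Myocd, Myh11, Pdlim3 and Actg2, but these markers helped to define it, so their lead is no test of the label. The second label named 106 (6.93%) of the 1530 cells SMC and 745 (48.7%) Tgfbi+ Fibroblasts. The median contractile count per cell of the class was 11 and 12 UMIs beside 8 and 8 in other mesenchymal cells. In its summed counts fibroblast genes and Pdgfra were at the level of the other classes. Of 14 vascular smooth muscle genes 4 had 0 UMIs, while the list summed to 736 and 671 CPM against 361 and 362 CPM elsewhere, most of it Ednra. It is called the SMC class here only as deposited.

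In the knockdown libraries a smaller share of each marker's mesenchymal UMIs lay in the SMC class than in the controls. Of all mesenchymal Myocd UMIs, 48.1% and 57.2% lay in the SMC class in controls 1 and 2, and 7.93% and 2.56% in knockdowns 1 and 2. The Tgfbi+ Fibroblasts class held 66.5% and 53.4% of them in the knockdowns. That class held 12.7% and 7.95% of mesenchymal UMIs of all genes there, and the SMC class 4.95% and 5.87% in the controls. Robo2 followed Myocd, with 30.6% and 36.2% in the SMC class of the controls and 45.9% and 38.6% in the Tgfbi+ class of the knockdowns. The actins were less concentrated: in the controls 17.8% and 24.1% of Actg2 UMIs and 9.21% and 14.2% of Acta2 UMIs lay in the SMC class. In the knockdowns the Tgfbi+ class held 26.4% and 13.0% of Actg2 UMIs and 33.6% and 13.7% of Myh11 UMIs. Classes other than these 2 held 50% and 81.6% of Myh11 UMIs there. In the controls such classes already held 60.2% and 53.0% of Myh11 UMIs and 69.4% and 62.4% of Robo2 UMIs.

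**Figure D4:**
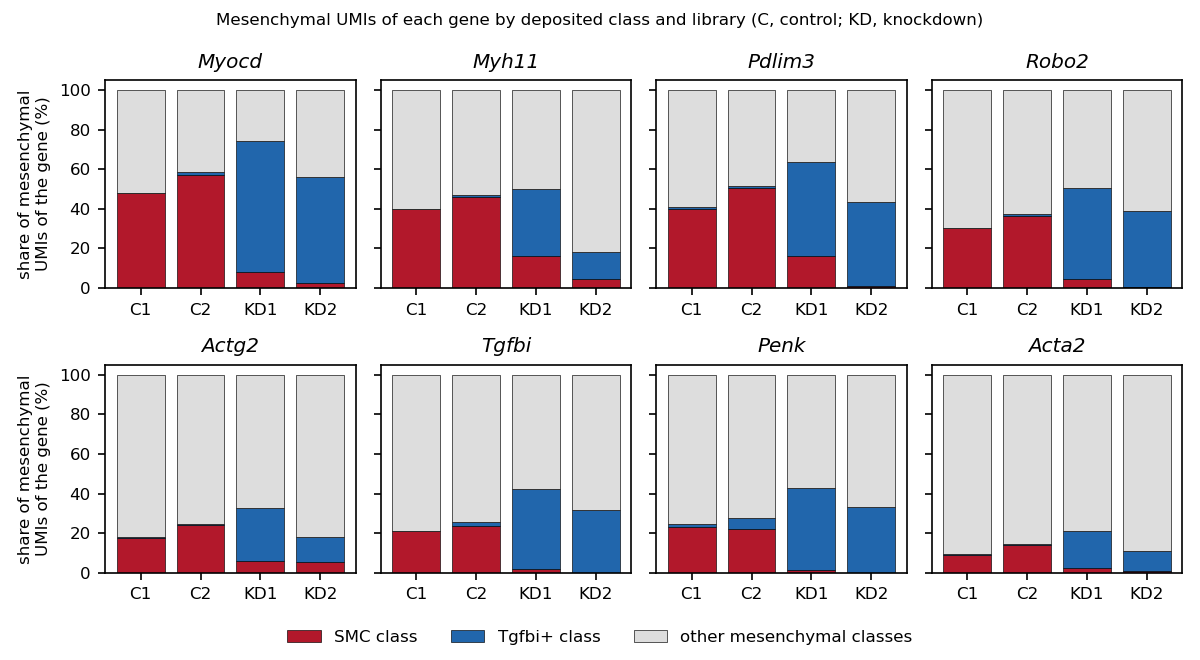
Share of each gene's mesenchymal UMIs (%) that lay in the SMC class (red), the Tgfbi+ Fibroblasts class (blue) and all other mesenchymal classes (grey), for controls 1 and 2 (C1, C2) and knockdowns 1 and 2 (KD1, KD2). For Myocd the SMC share is 48.1% and 57.2% in the controls and the Tgfbi+ share 66.5% and 53.4% in the knockdowns, while most Acta2 UMIs are grey in every library.

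The profile of the Tgfbi+ class in the knockdowns resembled that of the SMC class in the controls. These 2 profiles share no library. Each was a log2 ratio to the other mesenchymal cells of its own libraries, and across 6549 genes the Pearson correlation was 0.73 with knockdown 1 and 0.65 with knockdown 2 (Spearman 0.61 and 0.51). Among the other 9 classes of the knockdowns with over 50 cells the highest Pearson correlation was 0.268 and 0.328, for Wnt4+ Fibroblasts. The SMC class of knockdown 1, with 48 cells, had a Pearson correlation of 0.556 with its own profile in the controls. In it 24 of the 25 leading genes were at least 2-fold higher. Those cells share 1 deposited cluster with the control cells, so both values follow in part from membership. Of the 25 leading genes 24 and 21 were at least 2-fold higher in the Tgfbi+ class of knockdowns 1 and 2. Of the 115 genes higher in the SMC class 55 (47.8%) were at least 2-fold higher in the Tgfbi+ class in both knockdowns, against 110 (1.68%) of all 6549 genes, and of the 115 lower genes 66 (57.4%) were lower, against 167 (2.55%).

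The match was closer for Penk and Tgfbi than for the muscle myosin Myh11. The Tgfbi+ class carries Tgfbi in its name, so a high Tgfbi ratio there is no independent match. As log2 ratios to the other mesenchymal cells, Penk was at 2.27 and 2.52 in the Tgfbi+ class of knockdowns 1 and 2, against 2.35 in the control SMC class, and Tgfbi at 2.22 and 2.41 against 2.32. Myocd was at 3.53 and 3.40 against 4.08. Myh11 was at 1.66 and 0.79 against 3.55, and Actg2 at 1.21 and 0.75 against 2.15, the furthest short of these 5 genes. The contractile list summed to 4558 and 5682 CPM in that class, above the 3613 and 4539 CPM of the whole knockdown mesenchyme and below the 6170 and 7500 CPM of the control SMC class. Cells that moved between classes and cells lost from one class and gained in another cannot be told apart in these counts.

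**Figure D5:**
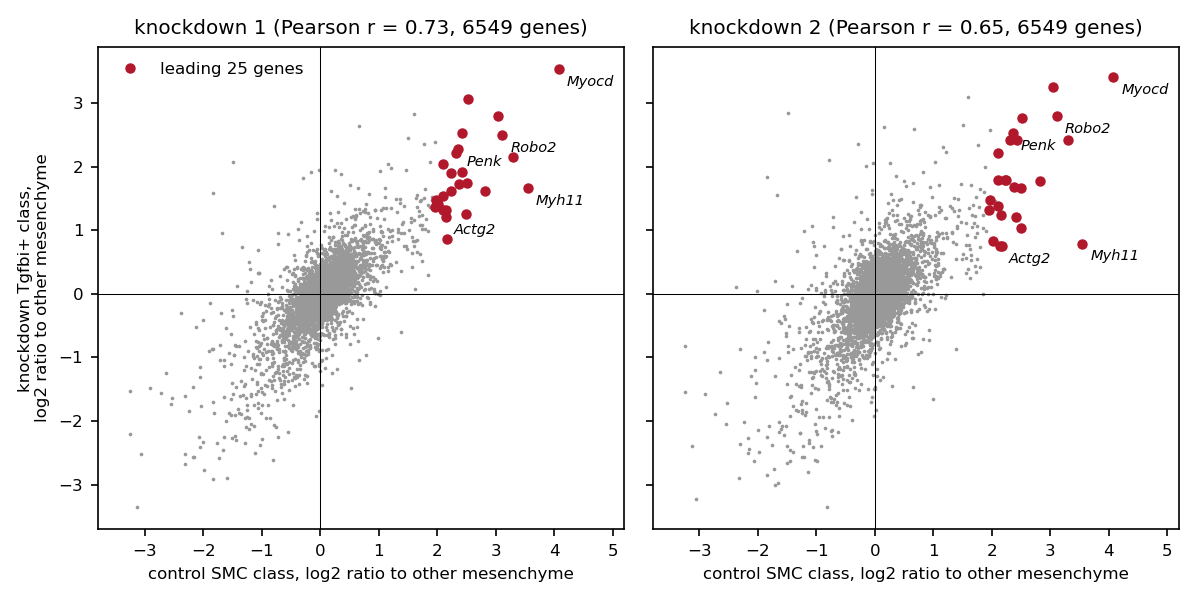
For 6549 genes, the log2 ratio of the SMC class to other mesenchymal cells in the controls (x axis, mean of both) against the log2 ratio of the Tgfbi+ Fibroblasts class to other mesenchymal cells in knockdown 1 (left) or 2 (right), with the 25 leading genes in red. The points rise together (Pearson 0.73 and 0.65), and Myh11 lies lower on the y axis than Myocd in both panels.

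Across the whole mesenchyme the knockdown was tested on counts summed per library, with and without the SMC cells, by edgeR's quasi-likelihood test. Levels in these tests are CPM scaled by TMM, and changes are knockdown minus control with their SE. Yap1, a targeted gene, fell from 61.3 and 64.9 CPM to 40.9 and 36.4 CPM (log2 -0.71 ± 0.11, adjusted p = 0.00864), and lost the call without knockdown library 2 (adjusted p = 0.0559). Wwtr1, which encodes TAZ, went from 239 and 231 CPM to 194 and 172 CPM and did not pass (adjusted p = 0.115). With SMC cells 773 genes (4.42% of 17481) were called higher and 1087 (6.22%) lower; without them 766 (4.4% of 17416) were higher and 1096 (6.29%) lower. In bulk sums of this kind fewer cells of a type and less RNA per cell cannot be told apart. Leaving out the SMC cells took 48.1% and 57.2% of Myocd UMIs from the controls, but 7.93% and 2.56% from the knockdowns. For Tgfbi it took 21.0% and 23.6% from the controls, but 1.94% and 0.0492% from the knockdowns. A rise without SMC cells, for genes high in the class, therefore follows in part from the cells left out.

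Of the 5 class markers Robo2 alone passed in the whole mesenchyme with all 4 libraries, and 2 or 3 passed when 1 library was left out. It fell from 66.9 and 70.0 CPM to 43.7 and 26.4 CPM (log2 -0.96 ± 0.21, adjusted p = 0.0267). With SMC cells left out it went from 48.9 and 47.5 CPM to 41.8 and 26.2 CPM and did not pass (-0.50 ± 0.20, adjusted p = 0.148), though it did without control library 1 (0.0203), control library 2 (0.00712) or knockdown library 1 (0.00596). Myocd did not pass with SMC cells, at 12.2 and 11.7 CPM against 14.1 and 6.93 CPM (adjusted p = 0.707), its knockdown libraries lying on either side of the controls, and passed as a fall without knockdown library 1 (0.027). Without SMC cells Myocd was at 6.67 and 5.35 CPM against 13.1 and 6.74 CPM, both knockdowns above the controls though not past the test (0.73 ± 0.28, adjusted p = 0.147). It passed as a rise without control library 1 (adjusted p = 8.81e-05), control library 2 (0.0143) or knockdown library 2 (0.00165). Myh11 was at 11.7 and 12.3 CPM against 9.17 and 6.93 CPM with SMC cells (adjusted p = 0.0535) and at 7.44 and 7.10 CPM against 7.70 and 6.59 CPM without (adjusted p = 0.93). With SMC cells it passed as a fall without control library 1 (0.00777), control library 2 (0.0164) or knockdown library 1 (0.0262). Actg2 passed as a fall without control library 1 (2.12e-07) or knockdown library 2 (0.035), and likewise without SMC cells (0.000323 and 0.0313).

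The contractile list had 1 gene that rose and 3 that fell of 20, with or without SMC cells. With 1 library left out the falls numbered 3 to 10 with SMC cells and 2 to 7 without, the most without control library 1 and the fewest without knockdown library 1. Hspb1, a small heat shock protein that binds actin, rose from 35.6 and 59.7 CPM to 179 and 266 CPM (log2 2.22 ± 0.27, adjusted p = 0.00388). Des fell from 42.8 and 62.4 CPM to 24.0 and 23.7 CPM (-1.14 ± 0.17, adjusted p = 0.00784). Synpo2 (myopodin) fell by 0.91 on the log2 scale (adjusted p = 0.013), and Lmod1 (leiomodin 1) fell by 1.15 (adjusted p = 0.0182) and lost the call without knockdown library 1 (adjusted p = 0.0514). Acta2, at 286 and 441 CPM against 210 and 332 CPM, overlapped between groups (adjusted p = 0.328), and passed without control library 1 (0.00229).

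Among the 25 leading genes 4 rose and 2 fell in the whole mesenchyme, and 7 rose and 1 fell without SMC cells. With 1 library left out, 4 to 8 rose and 3 to 6 fell with SMC cells. Without SMC cells 4 to 10 rose and 2 or 3 fell, with 4 rises without knockdown library 1, where Fmo2 (adjusted p = 0.134), Tbx3os1 (0.0685) and Tgfbi lost their calls. Penk rose from 203 and 266 CPM to 725 and 506 CPM (log2 1.39 ± 0.21, adjusted p = 0.00838), and Gm13889, Rapgef4 and Thsd4 also rose both ways. Tgfbi was at 83.6 and 107 CPM against 183 and 120 CPM with SMC cells (adjusted p = 0.0799). With them left out, mainly from the controls, it was called higher, from 69.6 and 87.0 CPM to 180 and 120 CPM (0.94 ± 0.20, adjusted p = 0.0287). Its log2 change was 0.62 without knockdown library 1. The hedgehog targets Gli1 and Ptch1 rose (log2 0.48 each, adjusted p = 0.0357 and 0.0314), and both calls were lost when either knockdown library was left out (Gli1 adjusted p = 0.185 without library 1 and 0.0716 without library 2, Ptch1 0.185 and 0.0877), that of Ptch1 also without control library 1 (0.0681).

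Within the SMC class itself the knockdown rests on 48 and 5 cells, and 1 UMI of knockdown library 2 was worth 30.8 CPM before TMM scaling. The test called 14 genes higher (0.143% of 9787) and 6 lower (0.0613%), with 580 at an unadjusted p under 0.05. Without control library 1 or without knockdown library 2 it called 0, with 53 and 766 at an unadjusted p under 0.05, and DESeq2 called 1 with all 4 libraries. Without control library 2 it called 3, and without knockdown library 1 it called 7. Myh11 went from 104 and 103 CPM to 308 and 276 CPM (log2 1.53 ± 0.31, adjusted p = 0.000968), all 4 values apart by group. Without any 1 library its log2 change was 1.36 to 1.56 and its adjusted p 0.152 to 1. Actg2 went from 71.1 and 123 CPM to 141 and 827 CPM (1.66 ± 0.32, adjusted p = 0.000506), with a log2 change of 0.48 without knockdown library 2. Tagln overlapped between groups, at 332 and 534 CPM against 427 and 2155 CPM (adjusted p = 0.0432), and its change was -0.070 without that library. Myh11 and Actg2 are markers of the class, and cells were placed in it partly by such genes. Their p-values therefore cannot tell a change in level from a change in which cells were left in the class.

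Adgrg1, an adhesion G protein-coupled receptor, had the largest rise, from 5.22 and 4.00 CPM to 78.2 and 75.2 CPM (log2 4.06 ± 0.63, adjusted p = 2.88e-07). It was the gene that DESeq2 also called, and without any 1 library its log2 change was 3.89 to 4.27 and its adjusted p 0.0573 to 1. In the mesenchymal cells outside the class Adgrg1 rose as well, from 4.31 and 3.56 CPM to 98.6 and 103 CPM (log2 4.68 ± 0.14, adjusted p = 1.56e-05). Within the class Ccn2, a YAP/TAZ target, was called higher, at 137 and 130 CPM against 172 and 777 CPM (adjusted p = 0.0365). Most of the difference was in knockdown library 2. Myocd was at 131 and 122 CPM against 229 and 150 CPM and did not pass (adjusted p = 0.789), nor did Yap1, at 67.9 and 61.4 CPM against 31.3 and 25.1 CPM (adjusted p = 0.874). Genes of airway secretory cells were among the 6 that fell. For the secretoglobin Scgb3a1 the controls gave 1436 and 209 CPM, against 0 and 125 CPM. The 9 airway genes summed to 1550 and 337 CPM in the class against 46.4 and 216 CPM in the knockdowns, and to 1361 and 290 CPM against 12.5 and 269 CPM in the other mesenchymal cells. The 12 AT2 genes, of which Cxcl15 was called higher, summed to 1010 and 1027 CPM against 2580 and 1016 CPM. The part of these epithelial transcripts in the result was not tested.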

How the data were processed

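RNA was measured by single-cell sequencing in 4 alveolosphere libraries prepared with a 10x Multiome kit, per the labels' protocols. The authors deposited whole-number UMI counts for 45936 cells and 32285 genes, with both annotation columns (15 classes in the first). They also deposited, per the file headers, the mitochondrial share as a percent, and ATAC doublet and start-site enrichment as a ratio, used only to describe cells. Per the submitters' processing notes, reads were placed on GRCm38 (mm10). The sources used here do not name the aligner or the counting tool. The chromatin data were not analysed here, and 49 further columns of the cell table stayed unused.

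All deposited cells of a class were kept and no doublet caller was run. Counts were summed per class and library, scaled to CPM, and compared as log2(CPM + 1) in each control, for genes with at least 20 CPM in either sum in both controls. A gene was called higher or lower at 2-fold in both controls, with no test, since the classes were built from the same genes. Shares of cells with a UMI used cells thinned to 2000 UMIs. Intervals are exact binomial at 95% and cover counting error only.

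The knockdown was tested with edgeR 4.0.16 (R 4.3.3) by the quasi-likelihood test with TMM and the default filter, Benjamini-Hochberg adjusted over all genes tested, at 0.05. DESeq2 1.42.0 was an alternative. Data were simulated with 200 changed genes, drawn from genes with at least 200 summed UMIs. Every gene had the same dispersion (spread between libraries beyond counting), 0.05. The test recovered 7% of log2 changes of 1 and 53% of changes of 2 for the SMC class over 9454 genes, and 16% and 99% for the whole mesenchyme over 17208 genes. Changes in genes with fewer UMIs or a wider spread were not simulated, so these shares do not give the recovery for such genes. Replicate numbers do not pair the libraries by any label, and 2 pairs are too few to show it from the data.

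Gene coordinates come from GENCODE on GRCm38, and promoters from RefSeq on GRCm38.p6. Named genes were the 25 with the highest and the 15 with the lowest ratio in the less different control, the class markers, members of the gene lists, and the 10 largest rises and falls called within the class; some genes that this rule names are not reported here. The members and lists were chosen with earlier results of these data known.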

Additional observations from a re-analysis of the deposited data

How the results depend on the processing

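With 1 library left out, an arm holds a single library that is assumed to vary like the other group. The 115 genes at least 2-fold higher in the class became 187 with no filter beyond 1 CPM, and the 115 lower genes became 306. Leaving out 1 control gave 145 to 151 higher and 150 to 165 lower. Subsets by the second label were added after seeing the data: only the cells named Tgfbi+ Fibroblasts gave 207 higher genes, only those named Fibroblasts gave 76, and leaving out those named SMC gave 126. In the subset named Fibroblasts the log2 ratios of Cnn1 (-0.29), Pdlim3 (-0.25) and Dkk2 (-0.080) changed sign, as did that of Mki67 without the cycling class (0.028). The cause was not tested. No other ratio reported here that was at least 2-fold changed sign under these settings.

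The 20 calls within the class became 1 with DESeq2 and 0 to 7 with 1 library left out, where 5 cells and 32469 UMIs limit knockdown library 2. The median log2 change of all genes was -1.69 without knockdown library 1, against -0.10 with all 4. With 1 library left out, log2 changes that turned sign ran, for Ch25h from -0.98 (without knockdown library 2) to 5.18 and for Tagln from -0.070 (likewise) to 2.27, and, with the lowest value always without knockdown library 1, for Cxcl15 from -0.057 to 2.03, for Lgr6 from -6.54 to 3.27, for Pdlim3 from -0.32 to 1.80 and for Ptn from -8.80 to 2.00. In the whole mesenchyme 1860 calls became 998 to 3666 with 1 library left out, and 1862 without SMC cells became 1237 to 3718, the most without control library 2 and the fewest without knockdown library 2. Ranges that crossed 0 there were Myocd, -0.79 to 0.24 (the latter without knockdown library 2), and Tagln, -0.67 to 0.0041 (without knockdown library 1). Without SMC cells they were Myh11, -0.14 to 0.085 (0.017 without control library 1, 0.085 without knockdown library 2), and Tagln, -0.63 to 0.051 (0.0030 without control library 2, 0.051 without knockdown library 1).

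With the replicate number as a block, calls numbered 6 within the class, 5820 in the whole mesenchyme and 5239 without SMC cells. Same-numbered libraries had correlated deviations of 0.0989, 0.373 and 0.375, and nothing in the labels pairs them.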

Other observations

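The regulators of the Hippo pathway were not set apart in the class. Of 17 pathway genes that reached 20 CPM in the controls 0 differed 2-fold, with a median log2 ratio of 0.25. Yap1 stood at 63.1 and 57.2 CPM in the class and 63.2 and 65.3 CPM in other mesenchymal cells, and Wwtr1 at 313 and 283 CPM against 243 and 227 CPM. Of 16 YAP/TAZ target genes 1 was higher, Igfbp3, an insulin-like growth factor binding protein (118 and 128 CPM against 45.9 and 52.0), with a median of 0.23. Of 12 alveolar fibroblast and lipofibroblast genes Lpl, lipoprotein lipase, was lower (143 and 221 CPM against 405 and 570) and 0 were higher.

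Cells that carried the second label SMC but sat outside the class, 206 and 246 in the controls, had Acta2 at 709 and 1147 CPM and Des (desmin) at 237 and 320 CPM. Their Myocd, at 7.82 and 4.60 CPM, was at the level of the other mesenchymal cells, and Myh11 stood at 27.8 and 32.2 CPM.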
